A study of Rattus norvegicus with 12 samples.

Results

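The genes of collagen, laminin and integrin subunits were described in the uterus of ovariectomized rats that had been given estradiol, 3-methylcholanthrene, both or neither. A gene was a member if its symbol was that of a collagen alpha chain, a laminin alpha, beta or gamma chain, or an integrin alpha or beta subunit, and if the array had a probe set assigned to that symbol alone. This gave 52 of 14506 genes, namely 25 collagen chains, 7 laminin chains and 20 integrin subunits. Of these, 47 were bright enough to be tested (24 collagens, 6 laminins and 17 integrins), and Col13a1, Lama1, Itga10, Itgad and Itgb7 were among the dimmest 30% of genes and were not tested. The dim limit was a mean log2 level of 6.44 over all 12 arrays. Itgb6, Lamb3 and Itgam passed it only through the rats given E2, with means of 6.11, 6.29 and 6.07 over the rats without E2. Col11a2 and Col4a4 passed it only through the rats without E2, with means of 6.39 and 6.29 over the rats given E2. Another 31 subunits looked for by symbol were not analysed here because no probe set carried their symbol alone.

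Collagens are trimers of alpha chains wound into a helix. The fibrillar types give connective tissue its tensile strength, collagen IV forms the mesh of basement membranes, and other types link fibrils, form filaments or span the cell membrane. Laminins are trimers of an alpha, a beta and a gamma chain that build the basement membrane under epithelium and around smooth muscle and vessels. Integrins are dimers of an alpha and a beta subunit in the cell membrane that bind these ligands outside the cell and the actin or keratin cytoskeleton inside it. In the uterus, this matrix is remodelled with the estrous cycle and in pregnancy, and estrogen is one of the hormones that drive that remodelling.

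All animals were young adult female Lewis rats without ovaries, and therefore without their main source of estrogen, in each of 4 groups of 3 rats. The groups received the DMSO vehicle, 17β-estradiol (E2) at 4 µg/kg/d, 3-methylcholanthrene (3-MC) at 15 mg/kg/d, or both at those doses (E2+3-MC), for 3 days, and the uterus was taken 24 h after the last dose. E2 is the main natural estrogen, and 3-MC is a polycyclic aromatic hydrocarbon that activates the aryl hydrocarbon receptor. RNA of each uterus was hybridised to its own Affymetrix array, and the authors deposited an intensity for each probe set on a linear scale. Intensities below are these deposited values, and a difference between groups is a difference of mean log2(intensity + 16), given with its standard error (SE) from limma and a p adjusted over all 10154 genes tested by the Benjamini-Hochberg method.

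The number of arrays, 3 per group, limits the precision, with a median SE of 0.22 for a difference over all genes. Median intensity per array lay between 86.3 and 124. Vehicle rat 1 stood apart: the interquartile range of its log2 values was 2.70 against 1.87 to 2.35 on the other arrays, and it was the highest of the vehicle rats for 81.0% of genes tested and for 32 of 47 members. It was the highest vehicle rat for all 9 members with a mean log2 level above 9. E2 rat 1 was the highest of the E2 rats for 45 of 47 members, against 89.1% of all genes tested. The total counts of called members on the deposited scale that rest on the vehicle group are also given without vehicle rat 1. Most other counts are not, such as those by family, of groups without overlap, after median centring, of listed genes and of markers. Markers of epithelium, smooth muscle and stroma, the main tissues of the uterus, were all above the dim limit, 9 of 9, 9 of 9 and 10 of 10 markers in turn.

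Sequence just upstream of the annotated start is shown for 4 of the members with large differences after E2. These moved together or, for Lamc3, the other way, with E2 in both pairs of groups below. The windows come from RefSeq (GRCr8), whose promoter table held 39 of the 52 members, and each holds the 250 bases before the start, 5′ to 3′ on the gene's strand. Capitals mark matches on either strand to GGGCGG (a GC box), CCAAT (the word bound by NF-Y), TATAAA (the core of the TATA box), TGANTCA (an AP-1 site), GGTCA (one arm of an estrogen response element) or GCGTG (the core of a response element of the aryl hydrocarbon receptor). Col6a4 lies at chr8:115611842-115612091 (minus strand), Itga2 at chr2:48354510-48354759 (minus strand), Lamb3 at chr13:107362303-107362552 (plus strand) and Lamc3 at chr3:35562739-35562988 (plus strand).
Col6a4: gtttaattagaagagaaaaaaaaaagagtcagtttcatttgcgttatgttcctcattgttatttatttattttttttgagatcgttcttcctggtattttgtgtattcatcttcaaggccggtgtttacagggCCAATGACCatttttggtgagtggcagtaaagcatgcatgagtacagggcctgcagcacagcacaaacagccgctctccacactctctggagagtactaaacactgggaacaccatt
Itga2: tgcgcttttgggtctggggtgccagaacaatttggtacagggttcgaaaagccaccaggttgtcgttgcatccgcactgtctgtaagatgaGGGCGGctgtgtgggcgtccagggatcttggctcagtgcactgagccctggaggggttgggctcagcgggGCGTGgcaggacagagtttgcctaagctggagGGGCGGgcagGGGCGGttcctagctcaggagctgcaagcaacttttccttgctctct
Lamb3: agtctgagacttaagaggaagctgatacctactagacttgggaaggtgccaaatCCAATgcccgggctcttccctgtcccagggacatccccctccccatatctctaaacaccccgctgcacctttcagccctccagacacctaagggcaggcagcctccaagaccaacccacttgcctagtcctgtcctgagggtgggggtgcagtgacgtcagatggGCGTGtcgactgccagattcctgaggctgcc
Lamc3: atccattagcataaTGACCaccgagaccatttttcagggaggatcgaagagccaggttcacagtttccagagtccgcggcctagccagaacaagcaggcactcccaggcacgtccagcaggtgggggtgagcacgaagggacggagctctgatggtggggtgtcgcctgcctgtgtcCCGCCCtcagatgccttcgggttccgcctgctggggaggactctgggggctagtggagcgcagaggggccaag

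In the Col6a4 window, a CCAAT match starting 117 bases before the start overlapped a GGTCA match on the opposite strand. The Itga2 window held 3 GC boxes and 1 GCGTG match, the Lamb3 window 1 CCAAT and 1 GCGTG match, and the Lamc3 window 1 GC box and 1 GGTCA match. Itgb6 had larger differences after E2 (2.52 and 1.98) than Itga2, Lamb3 and Lamc3. Its window is not printed and held no match to any of the words marked. These short words are common: GGTCA occurred in 33.8% of the windows of the same length of 18999 protein-coding genes and in 7 of the 39 member windows (17.9%). GCGTG occurred in 31.7% of all windows and in 11 member windows (28.2%), and GGGCGG in 40.3% and in 20 member windows (51.3%). The full element GGTCANNNTGACC was in 0 of 39 member windows and in 0.0211% of all windows. A match describes letters only and is no evidence that a factor binds there.

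Estradiol against vehicle asks which subunits respond to the hormone in an ovariectomized uterus. Of the 47 members tested, 12 passed the limma test, 10 higher and 2 lower in E2, or 25.5%, where 18.1% of all genes tested passed. The largest rises were in Col6a4, Itgb6, Lamb3, Itga2, Col1a1, Col1a2 and Itga5, each at least 2.03-fold, and Lamc3 and Col17a1 fell. Itgb6 and Lamb3 count here although they were below the dim limit without E2; with no dim filter both were still called (limma adjusted p = 5.35e-06 and 0.000308). By family, 3 of 24 collagens rose and 1 fell, 2 of 6 laminins rose and 1 fell, and 5 of 17 integrins rose. The median difference was -0.15 for collagens, 0.53 for laminins and 0.48 for integrins, against -0.11 for all genes. The rats of the groups did not overlap for 12 members that were higher and 5 that were lower in E2. Among all genes tested these shares were 10.1% higher and 17.1% lower, so groups without overlap, noted for single members below, are common. In bulk tissue, a change in the number of cells of a type and a change in RNA per cell cannot be told apart.

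The share of all genes that rose among those called depends on the scale. On the deposited scale 8.70% of all genes were called higher and 9.44% lower in E2, whereas after median centring of each array 15.1% were higher and 7.89% lower, or 23.0% in all, and 20 members were called. Quantile normalization, which makes the distributions of the arrays equal, gave 19.1% higher and 19.4% lower. It moved the median of all genes from -0.11 to -0.03. Of the members, 22 were called after quantile normalization (19 higher, 3 lower) against 38.4% of all genes, and 3 of the 47 differences changed sign.

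**Figure D1:**
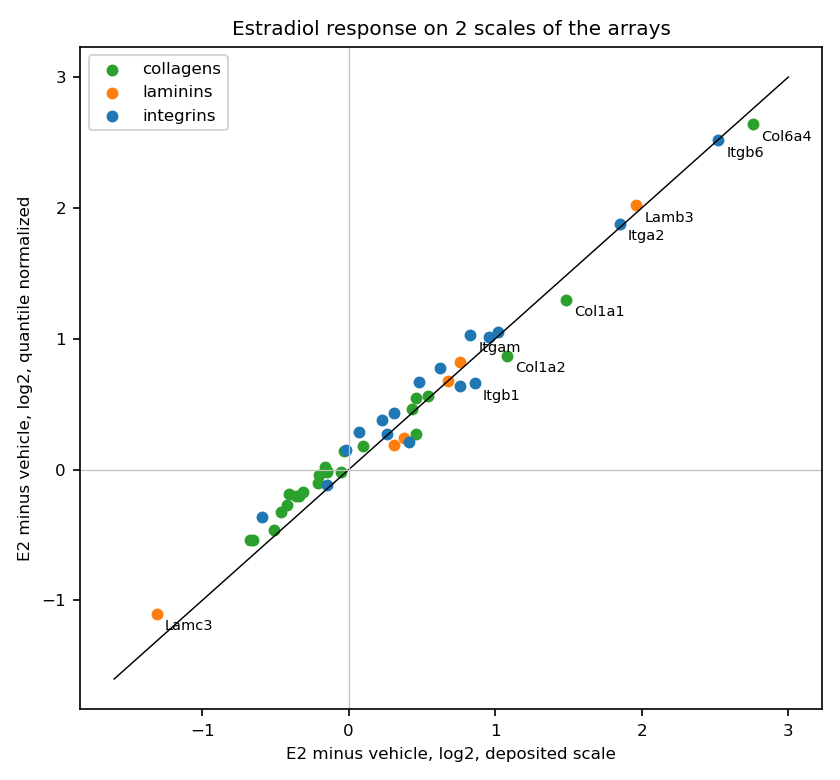
Difference between E2 and vehicle of each tested member on the deposited scale (horizontal) and after quantile normalization (vertical), in log2 units, coloured by family, with the line of equal values. Col6a4 had 2.76 and 2.64 and Col1a1 1.48 and 1.30, below the line, and Itgam 0.83 and 1.03, above it.

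**Figure D2:**
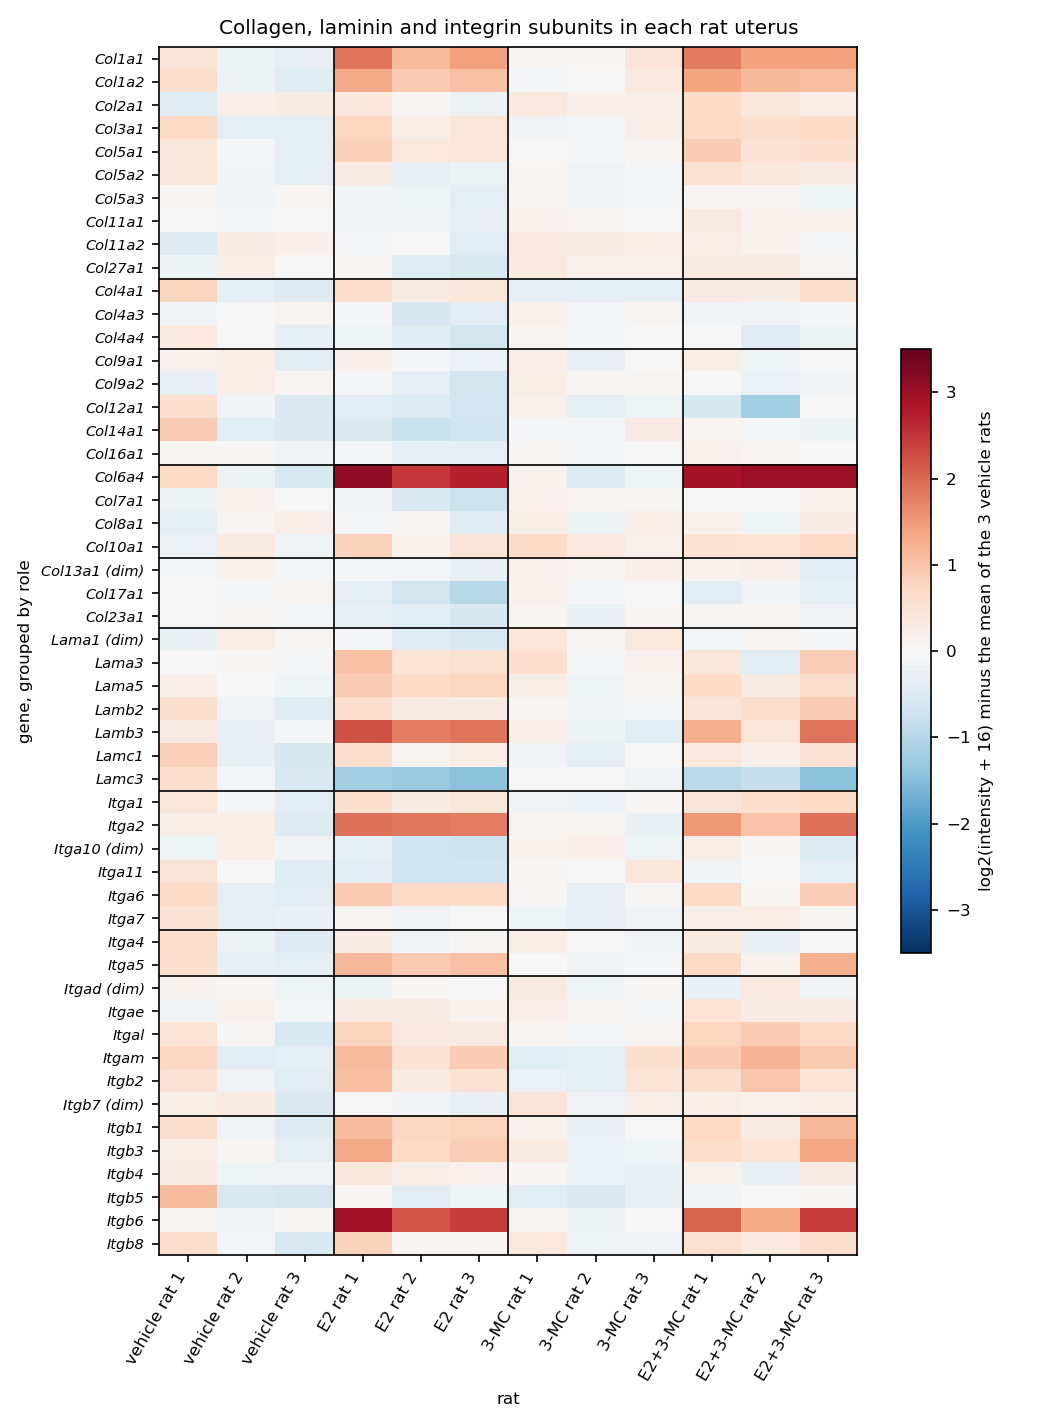
Difference of each rat from the mean of the vehicle rats, on the log2(intensity + 16) scale, for all 52 members. Each row is a member, grouped by role, with the 5 that were too dim to test marked, and each column a rat of the 4 groups. Col6a4 and Itgb6 stand out as high in the 6 rats given E2, alone or with 3-MC, and Lamc3 as low.

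Estradiol in rats given 3-MC was examined by setting E2+3-MC against 3-MC alone, which shares no rat with the first comparison. Here 9 members passed (8 higher, 1 lower), or 19.1%, against 8.21% of all genes tested (6.82% higher, 1.39% lower). Itgb6, Lamb3 and Itgam, which passed the dim limit only through the rats given E2, are among the 9. With no dim filter their limma adjusted p was 0.000124, 0.0116 and 0.0482 in turn. After quantile normalization 18 members (16 higher, 2 lower) and 26.1% of all genes were called (13.7% higher, 12.4% lower), and after median centring 14 members and 11.4% of all genes. The 8 genes Col1a1, Col1a2, Col6a4, Lamb3, Lamc3, Itga2, Itgb3 and Itgb6 were called in both comparisons with the same sign, which is 66.7% of the 12 called without 3-MC and 8 of the 9 called with it. Of all genes called in E2 against vehicle, 40.2% were also called here with the same sign. These were 740 genes of the 834 called here, so the 8 of 9 members lie near the share of all genes. The rats of the groups did not overlap here for 23 members that were higher and 4 that were lower, beside 25.7% and 11.6% of all genes. On the deposited scale with all 12 rats in the fit, Col17a1, Lama5, Itga5 and Itgb1 were called in the first comparison but not in the second, and Itgam in the second but not in the first. A difference between the responses was not called for any of them, and each of the 5 changed sides under some other setting. Col17a1 lost its call without 3-MC in 4 of 15 other settings. With 3-MC given, Lama5 was called after quantile normalization (limma adjusted p = 0.00690), after median centring (0.0476) and with only the groups compared (0.0435). Itga5 was called after quantile normalization (0.0184) and with only the groups compared (0.0228), and Itgb1 with only the groups compared (0.0129) and with the replicate number as a block (0.0471). Itgam was called without 3-MC after quantile normalization (0.0170), after median centring (0.0241) and with the block (0.0490). Among all 47 members, 36 differences had the same sign in both comparisons. The Pearson correlation of the 47 pairs of differences was 0.94, a description over genes that were measured in the same libraries. Neither value was computed over all genes, so neither sets the members apart from other genes.

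**Figure D3:**
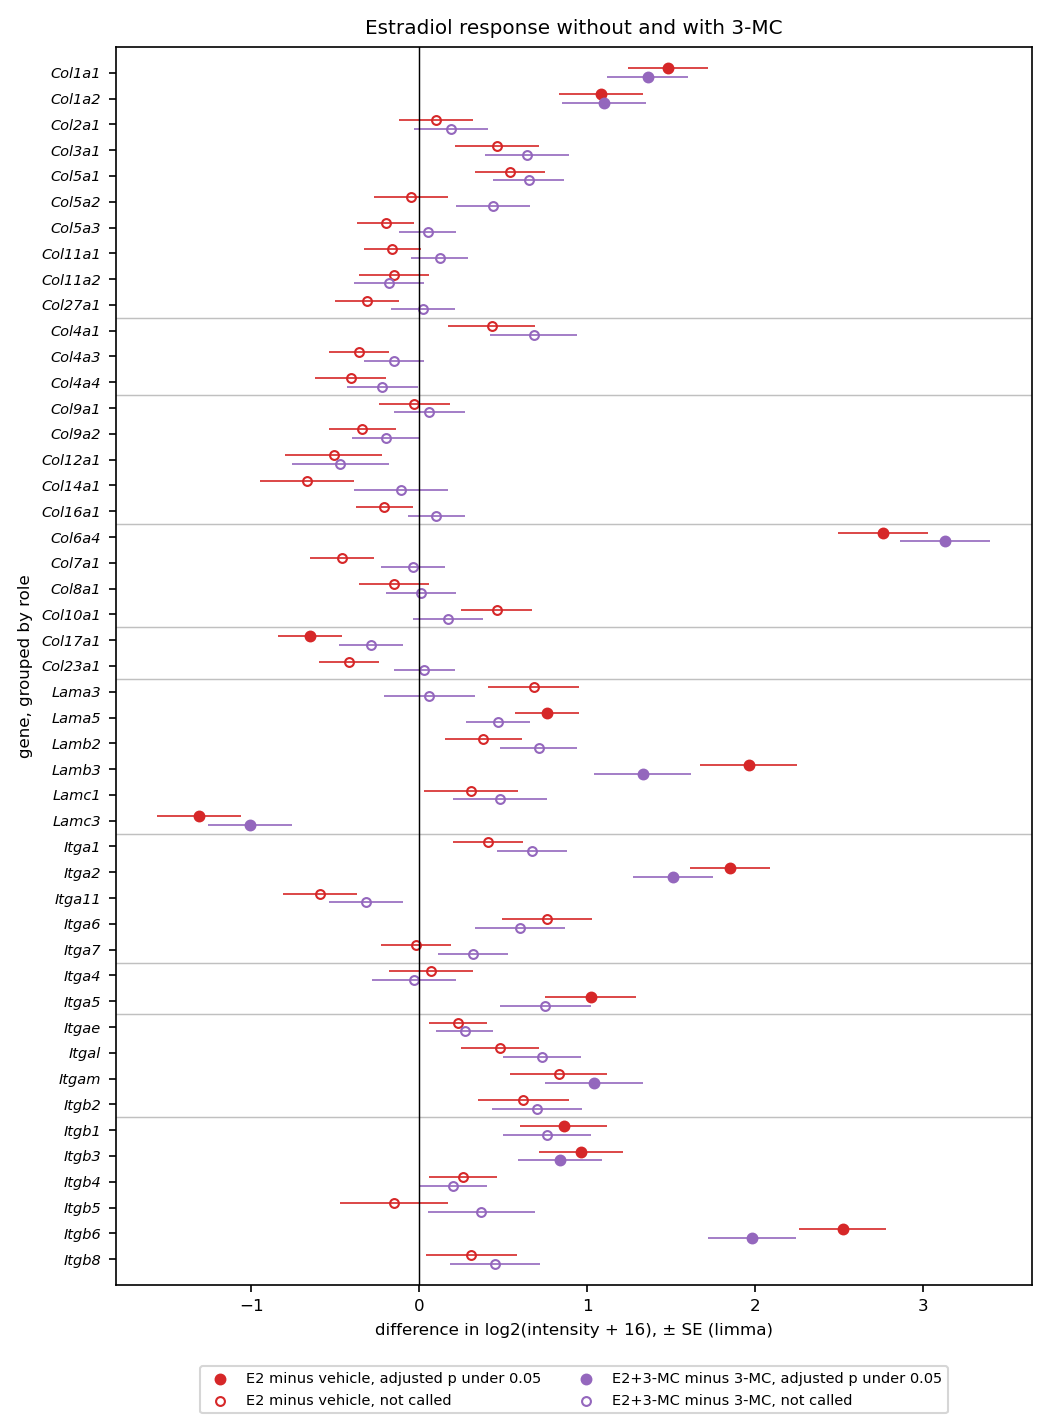
Differences with their SE for the 47 members tested, on the log2(intensity + 16) scale, for E2 minus vehicle and E2+3-MC minus 3-MC. Filled points passed the limma test. Col6a4 has the largest difference in both, at 2.76 and 3.13, and Lamc3 lies below 0 in both, at -1.31 and -1.01.

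Among the fibrillar collagens, the 2 chains of collagen I rose and the other 8 were not called. Col1a1, which encodes the alpha 1 chain of the main fibril-forming collagen, had intensities of 1212, 770 and 714 in the vehicle rats and of 3258, 1919 and 2382 in the E2 rats. It had 913, 912 and 1210 in the 3-MC rats and 3147, 2333 and 2376 in the rats given both. Every rat given E2 was above every rat that was not. The mean log2 level was 9.80 ± 0.41 (SD, n = 3) in vehicle and 11.27 ± 0.38 (SD, n = 3) in E2, a difference of 1.48 ± 0.24 (SE; 2.78-fold; limma adjusted p = 0.000396). In rats given 3-MC the difference was 1.36 ± 0.24 (SE; adjusted p = 0.00146).

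Col1a2, the alpha 2 chain that joins Col1a1 in the same trimer, had 1625, 914 and 768 in vehicle and 2657, 1934 and 2140 in E2. With 3-MC it had 991, 1039 and 1329, and with both agents 2736, 2296 and 2203. The groups with and without E2 did not overlap for this chain either, although vehicle rat 1 came closest to the E2 rats. The differences were 1.08 ± 0.25 (SE; limma adjusted p = 0.00571) and, in rats given 3-MC, 1.10 ± 0.25 (SE; adjusted p = 0.00843). The latter was no longer called without 3-MC rat 1 (1.02, adjusted p = 0.0528), 3-MC rat 2 (1.05, adjusted p = 0.0514) or E2+3-MC rat 1 (1.01, adjusted p = 0.0544).

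Col3a1, the single chain of collagen III, which forms fibrils together with collagen I, had a smaller difference. Its intensities were 2015, 978 and 982 in vehicle and 2120, 1441 and 1672 in E2, and the groups overlapped through vehicle rat 1. Its difference was 0.46 ± 0.25 (SE; limma adjusted p = 0.217), and 0.64 in rats given 3-MC (adjusted p = 0.144). Without vehicle rat 1 it was 0.80 and was called. Col5a1, a chain of the collagen that nucleates fibrils, had differences of 0.54 (adjusted p = 0.0862) and 0.65 (adjusted p = 0.0762). It was called in both after quantile normalization (limma adjusted p = 0.00173 and 0.00538) and after median centring (0.00703 and 0.0220). Its partner chain Col5a2, the neighbouring gene of Col3a1, had -0.05 and 0.44. The remaining fibrillar chains (Col2a1, Col5a3, Col11a1, Col11a2 and Col27a1), known mainly from cartilage or as minor fibril components, lay between -0.31 and 0.10 without 3-MC, and none was called in either comparison.

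Col6a4, a chain of the beaded-filament collagen VI family that links cells to the surrounding matrix, had the largest difference of all members in both comparisons. Intensities were 523, 274 and 212 in vehicle and 2792, 1817 and 2145 in E2. They were 341, 224 and 281 in 3-MC and 2447, 2612 and 2644 in E2+3-MC, so that the lowest rat given E2 was above the highest rat not given it by a wide margin. Mean log2 levels were 8.36 ± 0.64 (SD, n = 3) in vehicle and 11.12 ± 0.31 (SD, n = 3) in E2. The difference was 2.76 ± 0.27 (SE; 6.78-fold; limma adjusted p = 1.36e-06), and 3.13 ± 0.27 (SE; 8.78-fold; adjusted p = 4.79e-07) in rats given 3-MC. The other 2 probe sets of the gene gave 2.76 and 2.95 without and 2.84 and 2.91 with 3-MC. The CCAAT and GGTCA matches printed above for its upstream window are words that a large share of all windows hold. Col7a1, Col8a1 and Col10a1, which form anchoring fibrils or networks, were not called, with differences of -0.46, -0.15 and 0.46.

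No collagen IV or fibril-associated chain was called in either comparison. Col4a1, an alpha chain present in nearly all basement membranes, had 563, 255 and 232 in vehicle, 499, 407 and 427 in E2, 264, 256 and 259 in 3-MC and 396, 392 and 500 in E2+3-MC. Only vehicle rat 1 overlapped the rats given E2, and the difference was 0.43 ± 0.26 (SE; limma adjusted p = 0.259), or 0.82 and called without that rat. Col4a3 and Col4a4, alpha chains of a collagen IV trimer best known from the kidney glomerulus, are neighbouring genes on opposite strands, and their differences were -0.36 and -0.41. After quantile normalization Col4a1 was called (0.46, adjusted p = 0.0117).

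The fibril-associated collagens sit on the surface of fibrils, and all 5 had differences below 0 in E2 against vehicle, although Col9a1, at -0.03, was at 0.14 after quantile normalization. Col12a1 had 644, 397 and 292 in vehicle and 324, 297 and 259 in E2, which overlap, and a difference of -0.51 (limma adjusted p = 0.241). Col14a1 had 601, 245 and 218 in vehicle and 219, 180 and 190 in E2, which overlap only by vehicle rat 3 and E2 rat 1, and a difference of -0.67 (adjusted p = 0.107). Its difference in rats given 3-MC was -0.11. After quantile normalization Col14a1 was called lower in E2 against vehicle (-0.54, limma adjusted p = 0.0187). Col12a1 was then called lower in rats given 3-MC (-0.69, limma adjusted p = 0.0206).

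Of the membrane-spanning collagens, Col17a1 fell after E2. It encodes a transmembrane component of hemidesmosomes, the junctions that fasten epithelium to its basement membrane. Intensities were 205, 196 and 220 in vehicle and 159, 128 and 98.2 in E2, with no overlap. In 3-MC they were 230, 195 and 207 and in E2+3-MC 158, 194 and 159, so that the groups were kept apart only by 194 against 195. The difference was -0.65 ± 0.19 (SE; limma adjusted p = 0.0251) without 3-MC and -0.29 ± 0.19 (SE; adjusted p = 0.468) with it. The call was lost without vehicle rat 3 (-0.61, adjusted p = 0.0543), E2 rat 2 (-0.66, adjusted p = 0.0685) or E2 rat 3 (-0.49, adjusted p = 0.156). Col23a1, another membrane-spanning collagen, had -0.42 (adjusted p = 0.113) and 0.03.

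Among the 6 laminin chains tested, Lamb3 and Lama5 rose and Lamc3 fell after E2. Lamb3, the beta 3 chain found in basement membranes of epithelium, had 84.3, 53.2 and 62.3 in vehicle and 366, 267 and 281 in E2. It had 75.7, 55.7 and 47.4 in 3-MC and 182, 93.0 and 289 in E2+3-MC, so that every rat given E2 was above every rat that was not, but the spread was widest in the group given both. Its mean was below the dim limit in the rats without E2, so these differences are set against dim values. The difference was 1.96 ± 0.29 (SE; limma adjusted p = 0.000156) without 3-MC and 1.33 ± 0.29 (SE; adjusted p = 0.00749) with it. The latter was lost without E2+3-MC rat 3 (0.98, adjusted p = 0.0561).

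Lama3, the alpha 3 chain that trimerises with Lamb3, had 213, 217 and 197 in vehicle and 439, 296 and 312 in E2. These groups did not overlap, yet the difference of 0.68 ± 0.27 (SE) was not called (limma adjusted p = 0.0911). In E2+3-MC its intensities were 281, 154 and 392, spread across the 3-MC values of 321, 201 and 232, and the difference was 0.06. Quantile normalization gave 0.68 (adjusted p = 0.0284) and -0.09.

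Lama5, the alpha 5 chain of many adult basement membranes, had 161, 140 and 125 in vehicle and 275, 233 and 245 in E2. The groups did not overlap, and the difference was 0.76 ± 0.19 (SE; 1.69-fold; limma adjusted p = 0.00886). In rats given 3-MC it was 0.47 ± 0.19 (SE; adjusted p = 0.156). Its partner chains Lamb2 and Lamc1 had 0.38 and 0.31 without 3-MC and 0.71 and 0.48 with it, and none of these was called.

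Lamc3, a gamma chain of limited tissue distribution, was the only member called lower in both comparisons. It had 331, 208 and 144 in vehicle and 86.5, 77.4 and 69.9 in E2, with every E2 rat below every vehicle rat. In 3-MC it had 218, 212 and 195 and in E2+3-MC 106, 116 and 69.0, again without overlap. The difference was -1.31 ± 0.25 (SE; limma adjusted p = 0.00132), a level 2.47-fold lower in E2, and -1.01 ± 0.25 (SE; adjusted p = 0.0150) in rats given 3-MC. The second call was lost without 3-MC rat 1 (adjusted p = 0.0708), 3-MC rat 2 (0.0694) or E2+3-MC rat 3 (0.115), with differences between -1.01 and -0.82. A separate probe set assigned to both Lamc3 and Aif1l, which was not used, gave 0.30 and 0.16 (SE 0.22), so the probe sets disagree.

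Among integrin alpha subunits of collagen and laminin receptors, Itga2 rose and the other 4 tested were not called. Itga2 pairs with Itgb1 to form a collagen receptor of epithelium and platelets. It had 111, 112 and 64.6 in vehicle and 397, 379 and 364 in E2, a narrow range far above the vehicle rats. In 3-MC it had 100, 98.2 and 77.0 and in E2+3-MC 297, 205 and 400. The difference was 1.85 ± 0.24 (SE; 3.61-fold; limma adjusted p = 3.45e-05), and 1.51 ± 0.24 (SE; adjusted p = 0.000444) in rats given 3-MC. Itga1, its neighbouring gene and also a collagen receptor subunit, had 0.41 (adjusted p = 0.184) and 0.67 (adjusted p = 0.0555).

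Itga6, a laminin receptor subunit that pairs with Itgb4 in hemidesmosomes, had 891, 455 and 423 in vehicle and 1064, 905 and 896 in E2. Vehicle rat 1 was nearly level with the lowest E2 rat, and the difference of 0.76 ± 0.27 (SE) missed the threshold (limma adjusted p = 0.0567), but was 1.09 and called without that rat. Itgb4 itself had 0.26 and 0.20 and was not called. Itga11, a collagen receptor subunit of fibroblasts, had -0.59 (adjusted p = 0.0752) and -0.32, and Itga7, a laminin receptor subunit of muscle, had -0.02 and 0.32.

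Itga5, which joins Itgb1 in the main fibronectin receptor, had 320, 172 and 164 in vehicle and 474, 409 and 443 in E2. The groups did not overlap, and the difference was 1.02 ± 0.27 (SE; 2.03-fold; limma adjusted p = 0.0135). In rats given 3-MC the intensities were 212, 190 and 199 and, with E2, 346, 229 and 519, a difference of 0.75 that was not called (adjusted p = 0.109). The first call was lost without vehicle rat 2 (0.89, adjusted p = 0.0555) or E2 rat 3 (1.02, adjusted p = 0.0527), and the second difference was called without E2+3-MC rat 2 (1.03, adjusted p = 0.0217). Itga4, a subunit of another fibronectin receptor, had 0.07 and -0.03.

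Of the beta subunits outside the leukocyte group, Itgb6, Itgb3 and Itgb1 rose after E2, and Itgb4, Itgb5 and Itgb8 were not called. Itgb6 is an epithelial subunit whose dimer activates latent TGF-beta. It had 58.0, 48.1 and 55.6 in vehicle and 514, 305 and 361 in E2. In 3-MC it had 58.0, 45.5 and 54.6 and in E2+3-MC 276, 158 and 367, so the 6 rats without E2 were all at 58.0 or below and the 6 with E2 all at 158 or above. The level with E2 is set against values below the dim limit. The difference was 2.52 ± 0.26 (SE; limma adjusted p = 2.22e-06) without and 1.98 ± 0.26 (SE; adjusted p = 6.60e-05) with 3-MC.

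Itgb3, a subunit of receptors for vitronectin and other RGD ligands, had 164, 146 and 108 in vehicle and 366, 233 and 264 in E2. These did not overlap, and the difference was 0.96 ± 0.25 (SE; limma adjusted p = 0.0135), lost without E2 rat 1 (0.78, adjusted p = 0.0621). In rats given 3-MC it was 0.84 ± 0.25 (SE; adjusted p = 0.0475). That call lay at the threshold and was lost without 3-MC rat 1 (adjusted p = 0.0560), 3-MC rat 2 (0.215), 3-MC rat 3 (0.159), E2+3-MC rat 1 (0.0839) or E2+3-MC rat 3 (0.327), with differences between 0.57 and 0.99.

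Itgb1, the common partner of most matrix-binding alpha subunits, had 1611, 989 and 784 in vehicle and 2288, 1793 and 1874 in E2, without overlap. The difference was 0.86 ± 0.26 (SE; limma adjusted p = 0.0298), and 0.76 ± 0.26 (SE; adjusted p = 0.0942) in rats given 3-MC. The call was lost without vehicle rat 2 (0.80, adjusted p = 0.0824), vehicle rat 3 (0.64, 0.0990), E2 rat 1 (0.76, 0.0952), E2 rat 2 (0.93, 0.0605) or E2 rat 3 (0.90, 0.0790). The difference in rats given 3-MC was called without E2+3-MC rat 2 (0.98, adjusted p = 0.0354).

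The integrin subunits of leukocytes were called little on the deposited scale and more after quantile normalization. Itgam, which pairs with Itgb2 on macrophages and neutrophils, had 96.2, 37.1 and 37.9 in vehicle and 132, 81.0 and 110 in E2. Vehicle rat 1 lay among the E2 rats, and the difference of 0.83 ± 0.29 (SE) was not called (limma adjusted p = 0.0601). In 3-MC the intensities were 36.2, 39.3 and 84.5 and in E2+3-MC 111, 140 and 112, and the difference of 1.04 ± 0.29 (SE), taken against values below the dim limit, was called (adjusted p = 0.0358). Without vehicle rat 1 the first difference was 1.19 and called (adjusted p = 0.000344). The second was lost without any 1 of 3-MC rat 1 (0.87, 0.184), 3-MC rat 2 (0.91, 0.186), E2+3-MC rat 1 (1.10, 0.0881), E2+3-MC rat 2 (0.95, 0.0980) or E2+3-MC rat 3 (1.09, 0.0927).

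Itgb2, the beta subunit shared by leukocyte integrins, had differences of 0.62 (limma adjusted p = 0.121) and 0.70 (0.144), and Itgal, its partner on lymphocytes, 0.48 (0.161) and 0.73 (0.0613). Itgae, a subunit of lymphocytes within epithelium, had 0.23 and 0.27. After quantile normalization all 4 were called in both comparisons, with 1.03, 0.78, 0.67 and 0.38 in E2 against vehicle for Itgam, Itgb2, Itgal and Itgae. The summed intensity of 10 leukocyte markers lay between 1391 and 4443 in vehicle, 3886 and 6592 in E2, 1494 and 2952 in 3-MC and 5134 and 5573 in E2+3-MC, and 6 of 10 were called higher after E2. Vehicle rat 1 was the vehicle rat at 4443. The part of these markers in the integrin values was not tested.

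**Figure D4:**
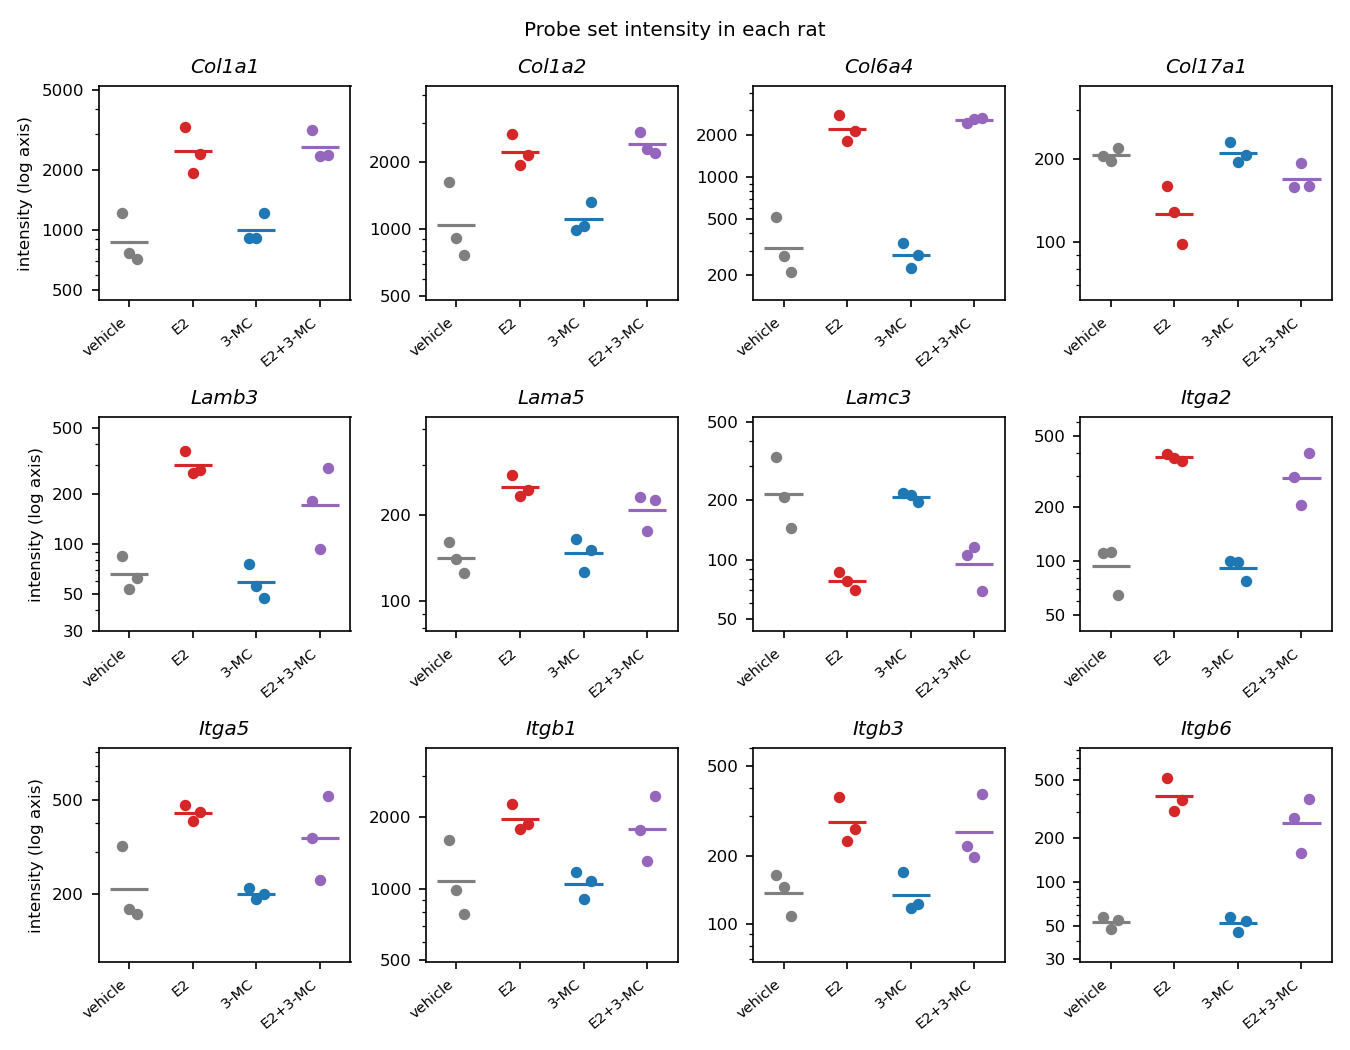
Intensity in each rat, on a log axis, for the 12 members called in E2 minus vehicle, by group. Points are single rats and bars the group means of the log2 values. Itgb6 stays at 58.0 or below in the 6 rats without E2 and at 158 or above in the 6 rats with E2.

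The summed level of epithelial markers was higher in every rat given E2 than in every rat without it. The summed intensity of 9 markers of epithelium was 6848, 3328 and 3304 in vehicle, 18338, 15147 and 15835 in E2, 4097, 3042 and 4040 in 3-MC and 12264, 7516 and 16206 in E2+3-MC, and 7 of 9 were called higher after E2. In the E2+3-MC group, rat 2 was the lowest for all 9 epithelial markers. It was also the lowest for 8 of the 11 members that rose in either comparison (72.7%), beside 59.0% of all genes. Itgb6, Lamb3, Itga2 and Col1a1 were among the 8. Col1a2, Col6a4 and Itgam were the other 3, and Col6a4 had 2447, 2612 and 2644 in that group. Of 10 markers of stroma 1 was called lower in E2, and 5 after quantile normalization, with sums between 8120 and 18811 in vehicle and between 7712 and 10550 in E2. Of 9 endothelial markers 7 were called lower in E2, and of 9 smooth muscle markers 2 higher. Of 8 adipocyte markers 6 were called lower in E2, as were 3 of 3 mesothelial and 3 of 3 blood markers. In E2+3-MC against 3-MC, 0 endothelial, stromal, mesothelial, blood or adipocyte markers were called lower, and 1 adipocyte marker was called higher. After quantile normalization 7 endothelial, 2 stromal and 3 mesothelial markers were called lower there, and 0 blood or adipocyte markers. Vehicle rat 1 had the highest endothelial (5177), stromal (18811) and mesothelial (2320) sums of all rats. The adipocyte sum was 20685 in vehicle rat 1 against 3077 and 4639 in the other vehicle rats. The part of these cell types in the members' differences was not tested.

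**Figure D5:**
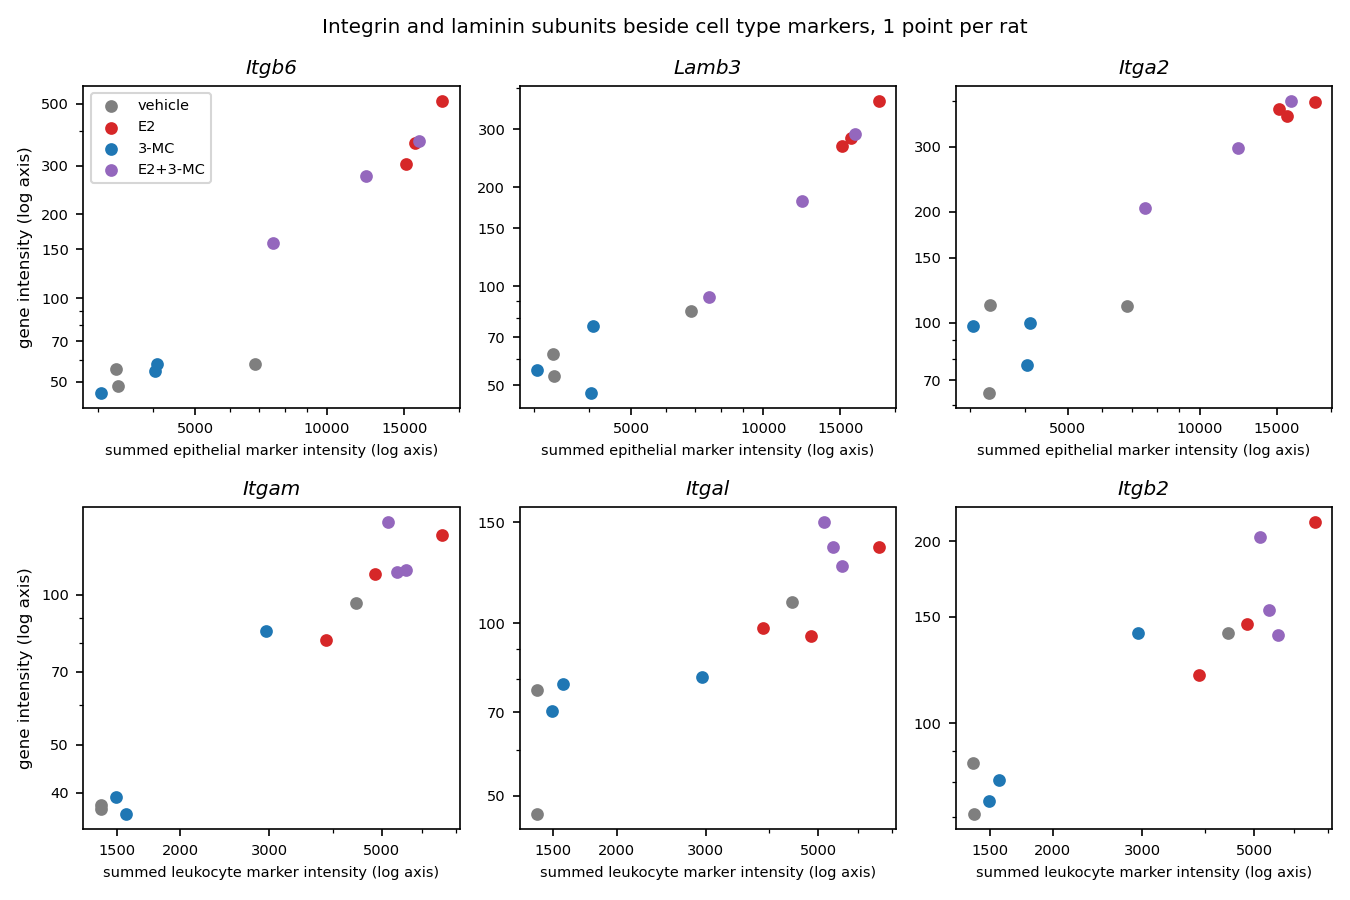
Intensity of Itgb6, Lamb3 and Itga2 against the summed intensity of the epithelial markers, and of Itgam, Itgal and Itgb2 against that of the leukocyte markers, on log axes, with 1 point per rat coloured by group. The epithelial sum lies between 3042 and 6848 in the 6 rats without E2 and between 7516 and 18338 in the 6 with it, and the 3 genes plotted against it are all higher in the latter.

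Genes that make, accompany or bind these proteins were taken from 4 lists of known function. Of their 90 genes tested, 19 (21.1%) were called in E2 against vehicle, beside 18.1% of all genes, and 11 (12.2%) in rats given 3-MC, beside 8.21%. Of 27 genes of collagen processing, 3 rose after E2 and 1 fell. Adamts3 and Adamts2, of the proteases that remove the amino-terminal propeptide of procollagens, had 1.70 and 0.73, and P4hb, a subunit of prolyl 4-hydroxylase and a disulfide isomerase, had 1.05 (limma adjusted p = 0.0239). P3h2, a prolyl 3-hydroxylase of basement membrane collagen, had -0.78 (limma adjusted p = 0.0251). In rats given 3-MC, Adamts3, P4hb and Adamts2 rose and none fell.

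Of 26 other matrix and basement membrane genes, 3 rose after E2 and 5 fell. Vcan, a large proteoglycan of loose matrix, had 2.15 ± 0.33 (SE; limma adjusted p = 0.000239), and Fn1, the fibronectin that Itga5 and Itgb1 bind, had 0.89 (adjusted p = 0.0457). Efemp1, a fibulin, had -2.33 ± 0.27 (SE; adjusted p = 1.07e-05), and Postn, a matricellular protein that binds collagen I, had -1.78 (adjusted p = 4.78e-05). In rats given 3-MC, 5 rose, Vcan and Fn1 among them, and none passed as lower, with -0.81 for Efemp1 and -0.66 for Postn. After quantile normalization 8 rose and 5 fell there, Efemp1 (-1.19, limma adjusted p = 0.000378) and Postn (-1.05, 0.000323) among the latter.

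Of 13 matrix receptors other than integrins, Sdc1, an epithelial heparan sulfate proteoglycan, rose in both comparisons (1.51 and 1.58). Ddr2, a collagen receptor kinase of stroma, had -1.02, and Bcam, a receptor of Lama5, had -0.88, both called lower in E2 against vehicle, and Sdc4 was called lower too (-0.75). In rats given 3-MC Ddr2, Bcam and Sdc4 had -0.18, -0.40 and -0.15 and were not called. After quantile normalization they were called lower there (-0.51, -0.71 and -0.44). Of 24 genes of the adhesion plaque, which ties integrins to actin, Fermt1, a kindlin that activates integrins (1.07), Vcl, or vinculin (0.94), and Lims2 (0.78) rose and none fell. Fermt1 (1.05) and Lims2 (0.96) were also called in rats given 3-MC.

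E2+3-MC against vehicle shares its vehicle rats with the first comparison and its treated rats with the second. Here 9 members were called, 8 higher and 1 lower, against 7.84% of all genes tested (6.06% higher, 1.78% lower), and after quantile normalization 20 (18 higher, 2 lower) against 26.1% (12.8% higher, 13.3% lower). Col6a4 had 2.97, Itgb6 1.95, Col1a1 1.55, Itga2 1.48, Lamb3 1.20, Col1a2 1.19, Itgam 1.00 and Itgal 0.77. Lamc3 was lower at -1.06. Itgal and Itgam lay at the threshold, with limma adjusted p = 0.0478 and 0.0475. Itgb3 had 0.81 and missed it (adjusted p = 0.0585). Without vehicle rat 1 the count was 24 of 47, beside 26.6% of all genes, and without E2+3-MC rat 3 it was 5, beside 4.38%.

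3-MC alone against vehicle asks whether the agent moved these genes without estrogen. With limma, 0 of 47 members were called at an adjusted p under 0.05, where 0% of all genes were, and 0 members had an unadjusted p under 0.05 against 82 of all genes tested. Differences ran from -0.39 for Itgb5 to 0.38 for Col10a1. The members with the smallest p were Col10a1, with 77.0, 116 and 82.6 in vehicle and 150, 119 and 103 in 3-MC (0.38 ± 0.21, SE), Col11a2 (0.28 ± 0.21, SE) and Itgb5 (-0.39 ± 0.32, SE). Vehicle rat 1 was the far value of its group for Itgb5, at 998 against 311 and 297, with 340, 317 and 376 in 3-MC, and for Itga7, at 207 against 111 and 117, with 126, 113 and 128 in 3-MC. Without that rat the differences were 0.17 for Itgb5 and 0.08 for Itga7. For the members E2 had raised most, the differences were 0.19 for Col1a1, -0.16 for Col6a4, -0.13 for Lamb3, -0.03 for Itga2 and -0.03 for Itgb6.

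Adding 3-MC to E2 was examined by setting E2+3-MC against E2. Again 0 of 47 members passed the limma test, where 0% of all genes did, although 7 members had an unadjusted p under 0.05 (937 of all genes tested). Differences ran from -0.76 for Lamb3 to 0.61 for Col14a1. The smallest p belonged to Col27a1 (0.54 ± 0.19, SE), with 103, 69.8 and 63.3 in E2 and 127, 126 and 107 in E2+3-MC. Col7a1 had 0.52 ± 0.19 (SE) and Lamb3 -0.76 ± 0.29 (SE), and the adjusted p was 0.503 to 0.505 for these 3. Itgb6 had -0.57 ± 0.26 (SE). The scale bears on these values, since the median of all genes was 0.15 on the deposited scale and -0.01 after quantile normalization. After it Col27a1 had 0.29, Col7a1 0.25 and Lamb3 -0.93.

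Whether the response to E2 differed with 3-MC was tested as the interaction of both agents. With limma, 0 of 47 members and 0% of all genes were called, and 0 members had an unadjusted p under 0.05 against 298 of all genes. The smallest adjusted p among members was 0.977. The smallest unadjusted p was that of Col23a1 (0.45 ± 0.25, SE). For Lamb3 the interaction was -0.64, with a 95% interval from -1.51 to 0.24, and for Itgb6 -0.54, from -1.31 to 0.22, so a response smaller by 1 log2 unit with 3-MC lies within both intervals. For Col1a1 it was -0.12 (-0.84 to 0.61), for Itga2 -0.34 (-1.05 to 0.37) and for Col6a4 0.37 (-0.43 to 1.18). These intervals do not show that E2 acted alike with and without 3-MC.

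The count of called members depended on single rats. Without vehicle rat 1, 26 members were called in E2 against vehicle (22 higher, 4 lower), where 34.9% of all genes were, and these held all 12 called with it. The members added as higher were Col3a1, Col4a1, Col5a1, Itga1, Itga6, Itgal, Itgam, Itgb2, Itgb8, Lama3, Lamb2 and Lamc1, with differences between 0.60 and 1.19, and those added as lower were Col7a1 (-0.54) and Col9a2 (-0.49). E2+3-MC against 3-MC gave 5 called members without 3-MC rat 1, 3-MC rat 2 or E2+3-MC rat 3 in turn, where 4.90%, 4.06% and 4.41% of all genes were called. Col1a1, Col6a4, Itga2 and Itgb6 were called in both comparisons of E2 under every alternative that was run. Col1a2, Lamb3 and Lamc3 were called under every alternative in E2 against vehicle but lost the call under some of them in rats given 3-MC. With only the 6 rats of E2 against vehicle in the fit, Col17a1 (limma adjusted p = 0.144), Lama5 (0.0703) and Itgb1 (0.0745) were not called. With 3-MC given, an offset of 64 in place of 16 ended the calls of Itgb3 (adjusted p = 0.0725) and Itgam (0.0691), and testing without the dim filter ended that of Itgb3 (0.0571).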

How the data were processed

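Total RNA from the uterus of each of 12 rats was labelled and hybridised to an Affymetrix array, and the authors deposited a linear probe set intensity, made in Affymetrix Expression Console by PLIER (per the submitters' processing notes, without versions). Probe sets were named by GEO's platform annotation, which can be old: of 29214, 15310 had 1 symbol, 323 several and 13581 none. For each of 14506 genes the single-symbol probe set with the highest mean was kept (527 genes had several).

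Values were transformed as log2(intensity + 16) with no further normalization, and the dimmest 30% of genes (mean log2 below 6.44) were left out. limma 3.58.1 in R 4.3.3 fitted 1 mean per group to all 12 arrays (8 residual degrees of freedom), and a gene was called at a two-sided Benjamini-Hochberg adjusted p under 0.05 over 10154 genes. The method was tested on simulated data.

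The members, gene lists and tests were chosen with earlier results of these data known. Members called in either comparison of E2 are named, with values per rat, beside their chain partners, the members brightest in a role where none was called, and up to 3 members by p in the other comparisons. From each list up to 4 called genes are named. Members and genes outside this rule (such as the ranges of uncalled members, and those added without vehicle rat 1) were named after their values were seen. Alternatives were quantile normalization, median centring, an offset of 64, no dim filter, trended and robust variances, only the groups compared, a replicate block, the mean over probe sets, and leaving out each rat. The labels do not say that rats of the same number belong together, so the number was not used as a pairing in the main fit. Deviations of same-numbered rats, correlated over genes, gave -0.27 to 0.18, which does not register a shift of a whole array. Rat 1 had the highest median intensity in each group (111, 108, 124 and 118 in vehicle, E2, 3-MC and E2+3-MC). Promoter windows and neighbouring genes are from RefSeq (GRCr8). Scan dates and the scanner files were not used here.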

Additional observations from a re-analysis of the deposited data

Results flagged for a closer look

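In 4 of the 47 members tested, all treated rats lay on one side of the mean of their control group without the other agent. With the other agent, all lay on the opposite side. The share of all genes that meet this rule was not computed, so the 4 cannot be called unusual. Single rats of the groups compared could still overlap, and the interaction was not called for any of the 4 (limma adjusted p = 0.977). The response of Col11a1 to E2 was -0.16 without and 0.12 with 3-MC (interaction 0.28 ± 0.23, SE). The response of Col16a1 to E2 was -0.21 without and 0.10 with 3-MC (interaction 0.30 ± 0.24, SE). The response of Itga7 to 3-MC was -0.18 without and 0.16 with E2 (interaction 0.34 ± 0.30, SE), and that of Itgb5 was -0.39 and 0.13 (interaction 0.52 ± 0.46, SE). Vehicle rat 1 was the far value of its group for Itgb5, at 998 against 311 and 297, and for Itga7, at 207 against 111 and 117. Without that rat the response to 3-MC alone was 0.17 for Itgb5 and 0.08 for Itga7, so the directions were no longer opposite.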

How the results depend on the processing

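The number of members called moved with the scale of the arrays and with the samples in the fit. In E2 against vehicle it was 12, beside 18.1% of all genes tested. It was 22 after quantile normalization (all genes 38.4%) and 20 after median centring (all genes 23.0%). After quantile normalization with vehicle rat 1 left out it was 29. In E2+3-MC against 3-MC it was 9, beside 8.21% of all genes. It was 18 after quantile normalization (all genes 26.1%), 14 after median centring (all genes 11.4%) and 22 with only the groups compared. In E2+3-MC against vehicle it was 9, beside 7.84% of all genes, and 20 after quantile normalization (all genes 26.1%). It was 4 with only the groups compared and 24 after quantile normalization with vehicle rat 1 left out. Leaving out 1 rat at a time gave 9 to 26, 5 to 10 and 5 to 24 in turn, and 0 throughout in the other comparisons. Leaving out vehicle rat 1 gave the 26 and the 24, beside 34.9% and 26.6% of all genes. With the replicate number as a block, 14 were called in E2+3-MC against 3-MC, 16 in E2 against vehicle and 11 in E2+3-MC against vehicle. The labels do not say whether the numbers pair the rats, however. No share of all genes is given here for the block, for only the groups compared or for most left-out rats. The same holds for quantile normalization without vehicle rat 1. Those counts describe the settings and are no result about the members. Fewer samples enter the fits of only the groups compared and of the left-out rats; the cause of the other moves was not tested. Over 26 differences of named members and all settings, 328 of 377 values kept their direction and side of the threshold, 34 fell short of it, 15 newly passed it and 0 reversed. These members were chosen by their calls in the same data and the settings share most rats, so the lack of reversals is no support. The 328 include values that were not called and stayed so, such as 14 of 14 for Col17a1 in rats given 3-MC. Array number and the dim filter limit what could be called, and 5 members had no test.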
